A study of Mus musculus with 9 samples.

Results

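The comparison described here set white adipose tissue (WAT) of leptin-deficient ob/ob mice given an extract of rice bean (Vigna umbellata, abbreviated VE by the submitters) against WAT of ob/ob mice given the vehicle. It was chosen by the sample titles, and it used 6 of the 9 arrays of the study, 3 in each group. Every cluster of probes with a named gene was examined: 19572 of the 22206 transcript clusters in the deposited table, which stand for 19505 genes. Both groups were male C57BL/6JHamSlc-ob/ob mice on standard chow, obtained at 6 weeks of age and acclimatised for 1 week. The treated mice received 100 mg/kg body weight of the extract by oral gavage for 6 weeks (42 days), and the others received vehicle by the same route for the same time. The remaining 3 arrays were from vehicle-treated C57BL/6JHamSlc-+/+ mice. Their values are given beside the others, and they entered the estimate of the spread. Each RNA sample was hybridised to its own Clariom S Mouse array, which carries probes for the exons of well-annotated genes. The labels do not say which fat depot was taken, whether a sample was 1 animal, or in what order the arrays were run, so the p-values measure the spread between these arrays only.

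An ob/ob mouse makes no functional leptin, the hormone by which fat cells report energy stores, and it becomes obese with enlarged fat cells and many macrophages in its fat. White fat cells hold mitochondria whose respiratory complexes I to IV pump protons across the inner membrane, and ATP synthase uses the gradient to make ATP. Most subunits of these complexes are encoded in the nucleus, translated on cytosolic ribosomes and imported, and a small set is made on the mitochondrial ribosome. The folds of the inner membrane, the cristae, are shaped by the MICOS complex and by rows of ATP synthase.

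The tissue label was checked against fat cell genes. Fabp4, the fatty acid binding protein of fat cells, lay between 19.57 and 19.80 on the log2 scale over the 6 ob/ob arrays, near the top of the scale. Leptin mRNA (Lep) read 18.86, 19.02 and 18.75 on the extract arrays, 19.02, 19.24 and 18.77 with vehicle in ob/ob mice and 14.22, 13.22 and 16.72 on the +/+ arrays. The ob/ob arrays of both treatments were thus above every +/+ array at Lep, and the extract and vehicle arrays overlapped there.

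In all, 5 genes were higher after the extract at an adjusted p under 0.05, and no gene was lower. They were Cops9, Dad1, Ppdpf, Micos10 and Naa38, and they differed by 4.72-fold to 20.8-fold. The calls are 5 of 19572 clusters, or 0.0255%, by limma with Benjamini-Hochberg adjustment over all annotated clusters. At an unadjusted p under 0.05 there were 893 clusters (4.56%), of which 569 were higher (2.91%) and 324 lower (1.66%) with the extract. A share of 5% would fall under that p if nothing differed. These p-values rest on a spread pooled over the 3 groups, and the +/+ arrays varied most. The median SD within a group was 0.407 on the +/+ arrays, 0.257 with the extract and 0.296 with vehicle. With the 6 ob/ob arrays alone, 1391 clusters fell under that p by limma. All 3 extract arrays lay above all 3 vehicle arrays at 1130 clusters (5.77%) and below them at 1329 (6.79%), and the difference was above 0 at 9098 clusters (46.5%). Large differences leaned towards higher signal with the extract: 302 clusters were more than 2-fold higher with the extract and 42 more than 2-fold lower, and 28 against 2 passed 4-fold.

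Cops9 encodes the smallest subunit of the COP9 signalosome, the complex that removes the ubiquitin-like protein NEDD8 from cullin ubiquitin ligases. Its log2 signal was 14.28, 14.23 and 14.15 on the extract arrays and 9.46, 9.82 and 10.24 on the vehicle arrays, a difference of 4.38 ± 0.376 (SE, n = 3 per group; adjusted p = 0.00739 by limma). The +/+ arrays read 10.55, 10.91 and 9.38, so the extract arrays stood apart from all 6 others. Dad1, a subunit of the oligosaccharyltransferase that attaches N-glycans to proteins in the endoplasmic reticulum, read 17.35, 17.54 and 17.33 with the extract and 15.27, 14.88 and 14.51 with vehicle. The difference was 2.52 ± 0.251 (SE; adjusted p = 0.0147 by limma), and the +/+ arrays were lower still at 13.68, 13.37 and 13.25.

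Ppdpf, named as a factor of pancreatic progenitor differentiation and proliferation, read 10.24, 10.48 and 10.18 with the extract against 8.01, 7.0 and 7.34 with vehicle. It was 2.85 ± 0.326 higher (SE; adjusted p = 0.0336 by limma). Micos10 encodes a core subunit of MICOS that bends the membrane at crista junctions. It read 15.74, 15.50 and 15.07 with the extract against 13.24, 13.07 and 13.28, a difference of 2.24 ± 0.264 (SE; adjusted p = 0.0336 by limma). Naa38, an auxiliary subunit of the N-terminal acetyltransferase NatC, read 12.32, 12.04 and 12.22 against 10.36, 9.46 and 9.82. Its difference was 2.31 ± 0.281 (SE; adjusted p = 0.035 by limma). For each of the 5 genes the lowest extract array exceeded the highest vehicle array by more than the range within either group.

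The calls of these 5 genes depended on the fit. Over 24 other fits the adjusted p of Cops9 by limma ran from 0.000146 to 0.214. The Cops9 difference lay between 4.12 and 4.58 and the Micos10 difference between 1.96 and 2.42. Fits that changed only the prior, the replicate block, the clusters tested or the +/+ arrays cannot move a difference of group means. The other fits reused the same arrays, so these ranges do not measure how well the sizes would repeat. Leaving out any one extract array, or vehicle array 2, left 0 calls, with 706, 717, 642 and 616 clusters at an unadjusted p under 0.05 by limma. Without vehicle array 3 the call of Cops9 alone was left, without vehicle array 1 there were 21 calls, and without the third +/+ array 9. Quantile normalization of the arrays left 1 call, Cops9, with adjusted p values of 0.0504 to 0.055 for the other 4 genes by limma. A fit on the 6 ob/ob arrays alone called 19 genes, all higher and the 5 among them.

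**Figure D1:**
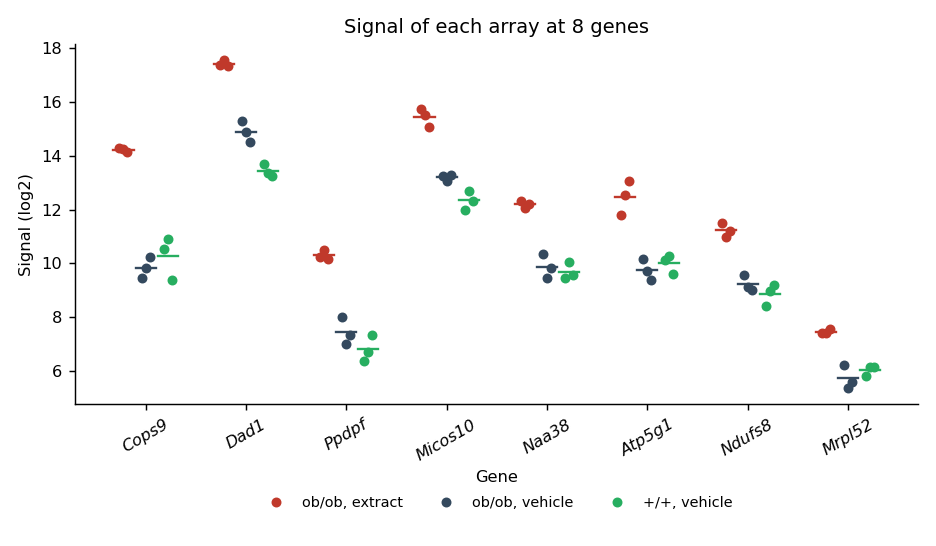
Log2 signal of each array at the 5 called genes and at 3 of the next by test statistic (Atp5g1, Ndufs8, Mrpl52). Points are arrays, 3 per group, and the short lines are group means; at all 8 genes the 3 extract arrays lie above the 3 ob/ob vehicle arrays and above the 3 +/+ arrays.

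The promoters of the called genes are shown because these genes were higher together, and so that their sequences can be set side by side. The RefSeq promoter table (GRCm38.p6) held 4 of the 5 genes, and Naa38 is named only. For each gene the 250 bases before a start site are printed 5′ to 3′, and where the table had several start sites the one furthest along the gene was taken. The windows are chr1:92641949-92642198 on the minus strand for Cops9, chr4:139131038-139131287 on the minus strand for Micos10, chr14:54253930-54254179 on the minus strand for Dad1 and chr2:181186997-181187246 on the plus strand for Ppdpf. Capitals mark matches to the ETS-type motif CCGGAAG.
Cops9 promoter: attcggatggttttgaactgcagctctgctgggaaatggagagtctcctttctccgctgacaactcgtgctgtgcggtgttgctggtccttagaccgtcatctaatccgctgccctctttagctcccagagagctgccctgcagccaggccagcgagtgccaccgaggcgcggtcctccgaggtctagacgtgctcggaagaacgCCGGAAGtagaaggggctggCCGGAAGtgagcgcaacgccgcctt
Micos10 promoter: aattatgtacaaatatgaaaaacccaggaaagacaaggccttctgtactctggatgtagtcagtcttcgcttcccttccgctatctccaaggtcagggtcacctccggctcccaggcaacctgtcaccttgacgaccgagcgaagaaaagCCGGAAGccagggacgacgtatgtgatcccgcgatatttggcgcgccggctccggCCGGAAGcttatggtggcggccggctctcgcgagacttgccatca
Dad1 promoter: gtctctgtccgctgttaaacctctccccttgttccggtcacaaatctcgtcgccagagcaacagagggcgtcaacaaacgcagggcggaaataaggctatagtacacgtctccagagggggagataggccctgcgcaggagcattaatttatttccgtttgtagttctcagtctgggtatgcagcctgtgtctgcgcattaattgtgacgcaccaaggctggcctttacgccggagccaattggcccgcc
Ppdpf promoter: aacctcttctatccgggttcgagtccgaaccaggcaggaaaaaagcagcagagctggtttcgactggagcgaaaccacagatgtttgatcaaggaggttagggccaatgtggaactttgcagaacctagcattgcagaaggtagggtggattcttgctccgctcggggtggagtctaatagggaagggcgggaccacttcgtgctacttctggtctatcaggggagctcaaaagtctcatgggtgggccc
Both strands were searched for 6 motifs. Cops9 and Micos10 each held CCGGAAG at 2 places, a motif found in 6.91% of the 32851 windows of this length. Those windows include several start sites for some genes, and genes without a cluster here. With 1 window for each of the 15691 array genes with a promoter, the share was 9.47%. The shares of the other motifs below are over all windows. None of the 4 windows held the E-box CACGTG (6.02% of all windows), the cyclic AMP element TGACGTCA (1.55%), the GC box GGGCGGGG (16.1%) or the antioxidant-type element TGACNNNGC (10.2%). The NRF1 palindrome, GCATGC flanked by another GC on either side, was also absent from them and was found in 0.782% of windows. No motif contains another, and matches of different motifs that share letters were counted for each. A match here is a run of letters and does not show that a factor binds.

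Of the called genes, 4 belong to the lists of a complex or enzyme family, and each had the highest difference of its list. These genes were picked by their test statistics, and the lists were chosen with earlier results of these data known. The top place of each in its list is therefore no separate result. Of 10 COP9 signalosome subunits measured, Cops9 was the only one called. Cops5, the catalytic subunit, read 11.33, 11.34 and 11.31 against 10.80, 10.38 and 10.50, a difference of 0.77 ± 0.210 (SE; unadjusted p = 0.00447 by limma). Cops6 differed by 0.72 and Gps1 by 0.59, and the other 6 subunits by -0.06 to 0.35. Over 12 oligosaccharyltransferase subunits, Dad1 was at 2.52, the small subunit Ost4 at 1.16 (unadjusted p = 0.0292 by limma) and the catalytic subunits Stt3a and Stt3b at 0.11 and 0.19. Among 9 N-terminal acetyltransferase subunits Naa38 stood at 2.31, the next was Naa25 at 0.42, and Naa35, its partner in NatC, was at 0.00. In MICOS and its associated proteins all 11 members were above 0, with Micos10 at 2.24, Micos13 at 0.83, Mtx2 at 0.70, Samm50 at 0.61 and the scaffold Immt at 0.28. Whether these 4 genes differed more than the other members was not tested.

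The respiratory chain and ATP synthase had the highest medians among the 46 gene lists. Of 80 subunits measured, 74 were above 0, 43 were higher at an unadjusted p under 0.05 and none was lower. Of all 19572 clusters 46.5% were above 0, 2.91% (569) were higher and 1.66% (324) lower. The subunits were mostly bright, 78 of them above the median cluster, and bright clusters leaned higher with the extract. No subunit was called at an adjusted p under 0.05 by limma. The median difference over the 80 was 0.75 on the log2 scale, against -0.02 over all clusters, and 25 subunits were more than 2-fold higher. The median signal of the 80 was 12.20, 12.18 and 12.17 on the extract arrays and 11.73, 10.91 and 11.11 on the vehicle arrays. The extract arrays were tight and above every vehicle array, with vehicle array 1 the nearest. Over the +/+ arrays the same median was 11.67, 11.53 and 11.32, which overlapped the ob/ob vehicle arrays. Without vehicle array 2 the count of 43 became 26, and with every array scaled to a common spread it became 28.

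In complex I, the entry point for electrons from NADH, 33 of 36 subunits were above 0 and 19 were higher at an unadjusted p under 0.05, with a median of 0.75. Ndufs8, an iron-sulfur subunit of its core, read 11.50, 10.97 and 11.21 with the extract and 9.58, 9.11 and 9.02 with vehicle. The difference was 1.99 ± 0.281 (SE; adjusted p = 0.0589 by limma). Ndufc1, an accessory subunit, read 13.76, 13.33 and 13.48 against 11.71, 10.92 and 11.14, and Ndufb9, another, read 13.71, 13.98 and 14.09 against 12.53, 10.87 and 10.93. Ndufs7, a second iron-sulfur subunit of the core, read 11.43, 11.44 and 12.08 against 10.33, 8.14 and 9.09. Ndufs8 and Ndufc1 were named for the highest test statistics of the list, and Ndufb9 and Ndufs7 by a rule that required groups without overlap. That the groups did not overlap at these 4 genes is therefore no separate result. Over complex I, all extract arrays lay above all vehicle arrays at 19 of 36 subunits, beside 5.77% of all clusters. Vehicle array 1 was the highest vehicle array at each of these 4 genes. The members furthest the other way were Ndufb10 at -0.23 and Ndufb8 at -0.22, both with overlapping arrays.

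Complexes II to IV carry electrons on to oxygen, and 26 of their 27 measured subunits were above 0, 13 of them at an unadjusted p under 0.05, with a median of 0.59. Cox7c of cytochrome c oxidase read 17.16, 17.02 and 17.17 with the extract against 15.86, 15.39 and 15.92, a difference of 1.39 ± 0.233 (SE; adjusted p = 0.131 by limma). Cox6c of the same enzyme read 15.08, 14.68 and 15.15 against 13.50, 12.83 and 13.76. Both were named for the highest test statistics of the list, and neither had overlapping groups. All extract arrays lay above all vehicle arrays at 12 of the 27 subunits, beside 5.77% of all clusters. At Cox6c the +/+ arrays, at 14.65, 15.66 and 14.19, overlapped the extract arrays. Sdhb, the iron-sulfur subunit of complex II, differed by 0.12, and Uqcrq of complex III by -0.14.

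ATP synthase had the highest median of any list, 0.85 over 17 subunits, with 15 above 0 and 11 higher at an unadjusted p under 0.05. Without vehicle array 1 that median was 1.28. Atp5g1 encodes the c subunit that forms the rotating ring. It read 11.81, 12.53 and 13.05 with the extract and 10.16, 9.71 and 9.40 with vehicle, a difference of 2.71 ± 0.352 (SE; adjusted p = 0.0532 by limma). Atp5d, the delta subunit of the central stalk, read 13.96, 14.48 and 14.59 against 12.47, 11.93 and 11.22 (2.47 ± 0.352, SE; adjusted p = 0.0589 by limma). Both came just short of the threshold. Not every subunit followed: Atp5e, the epsilon subunit, read 9.46, 9.39 and 9.68 against 10.41, 9.75 and 9.78 and was lower on all 3 extract arrays, and Atp5k was at -0.35. Probes for a subunit with near-identical copies elsewhere in the genome may bind both. Single ribosomal protein and ATP synthase values carry this limit, as do the medians of their lists, and its size was not tested.

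**Figure D2:**
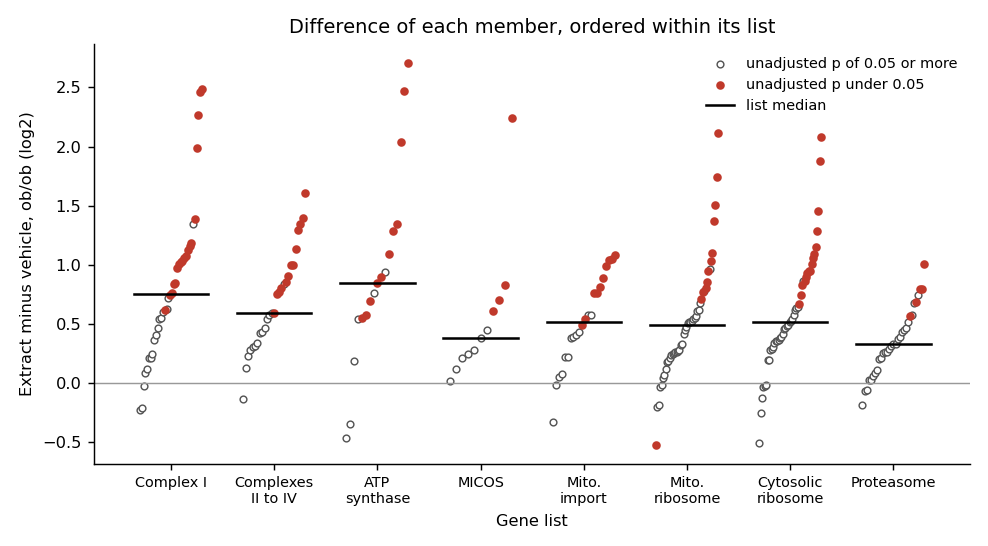
Log2 difference, extract minus vehicle in ob/ob WAT, of every measured member of 8 lists, ordered within each list. Filled points had an unadjusted p under 0.05 and black lines are list medians, which run from 0.33 in the proteasome to 0.85 in ATP synthase.

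Proteins that build mitochondria lay on the same side. In the import machinery 20 of 22 members were above 0 and 10 were higher at an unadjusted p under 0.05, with a median of 0.52. Among all clusters 46.5% were above 0, and at that p 2.91% were higher and 1.66% lower. Of the import members 20 of 22, and of the mitochondrial ribosomal proteins 44 of 46, were brighter than the median cluster, and bright clusters leaned higher. Romo1, a small inner membrane protein, read 12.33, 12.25 and 12.19 against 11.90, 10.78 and 10.94. Dnajc19, a co-chaperone of the import motor, read 12.81, 12.37 and 12.53 against 11.52, 11.17 and 11.90. Both were named for the highest test statistics of the list, and the groups were separate at both. All extract arrays lay above all vehicle arrays at 9 of the 22 import members, beside 5.77% of all clusters. On the mitochondrial ribosome 41 of 46 proteins were above 0, 11 were higher and 1 lower at an unadjusted p under 0.05, with a median of 0.49. Without vehicle array 2 that median was 0.28, and without extract array 1 it was 0.31. Mrpl33 of its large subunit read 12.87, 12.74 and 12.56 against 11.17, 10.31 and 10.35 (2.11 ± 0.320, SE; adjusted p = 0.0804 by limma), and Mrpl52 read 7.40, 7.43 and 7.57 against 6.21, 5.38 and 5.59. Mrps5 of the small subunit was the exception, at 8.78, 8.86 and 8.93 against 9.47, 9.31 and 9.36. None of these passed the adjusted threshold.

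The regulators of mitochondrial biogenesis had a median near that of all clusters. Over the 16 members of the list of AMP kinase, sirtuins and biogenesis factors the median was -0.02, with 7 above 0. Stk11, the kinase that activates AMP kinase, was at 0.89 (unadjusted p = 0.0292 by limma) and Tfb2m, a mitochondrial transcription factor, at 0.83 (unadjusted p = 0.035 by limma). Gabpa, the ETS factor also called NRF2 alpha, was at -0.40 and Ppargc1b, a coactivator of mitochondrial genes, at -0.49. The citrate cycle enzymes had a median of 0.12 with 13 of 19 above 0, and the enzymes of fatty acid oxidation 0.17 with 17 of 19 above 0. With arrays scaled to a common SD these medians were -0.06 and 0.04. Cpt1a, which admits fatty acids to mitochondria, read 11.71, 11.82 and 11.82 against 11.38, 11.93 and 11.66, and the groups overlapped.

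Cytosolic translation and protein turnover genes also leaned higher, where 46.5% of all clusters were above 0 and 2.91% were higher at an unadjusted p under 0.05. All 46 ribosomal proteins and all 31 proteasome subunits measured were brighter than the median cluster. In the brightest decile 58.6% of clusters were above 0, and 175 of 1958 were higher at that p. Of 46 cytosolic ribosomal proteins 40 were above 0 and 16 were higher at an unadjusted p under 0.05, none lower, with a median of 0.52. That median was 0.27 with arrays scaled to a common SD and 0.34 both under quantile normalization and without vehicle array 2. Rpl28 read 16.19, 15.97 and 15.60 against 14.67, 13.62 and 13.24 (2.08 ± 0.355, SE; adjusted p = 0.142 by limma), and Rps23 read 17.57, 17.00 and 17.31 against 16.25, 15.58 and 16.20. Rpl27 pointed the other way, at 10.22, 10.09 and 10.10 against 10.75, 10.58 and 10.62. In the proteasome, which degrades ubiquitin-tagged proteins, 28 of 31 subunits were above 0 with a median of 0.33, and 5 were higher at an unadjusted p under 0.05. Its median was 0.20 under quantile normalization and 0.17 with the common SD. Psma7 of its core ring was the furthest, at 1.00. The unfolded protein response list stood at a median of 0.00 with 8 of 17 members above 0. Gene models without a proper name, such as Gm5617, were left out of the naming. Of the other clusters outside the lists, the next by test statistic included Wdr74 (2.15) and Pop4 (2.01), which act in RNA processing. The others were Ift20 (1.97), a transport protein of cilia, and Dph3 (1.94), which acts in diphthamide synthesis. For all of them the adjusted p was 0.0589 to 0.0804 by limma.

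Promoter letters were compared for the same lists, with 1 window for each gene. CCGGAAG was held by 12 of 69 respiratory subunit promoters in the table (17.4%), 13 of 40 of the mitochondrial ribosome (32.5%) and 12 of 36 of the cytosolic ribosome (33.3%). Over the 15691 array genes with a promoter the share was 9.47%. The NRF1 palindrome was in 4 of the 69 respiratory windows (5.8%) against 1.1% of those genes. The GC box was in 14.5% of the respiratory windows against 22.1%. These shares describe the letters of the windows only; the base composition of the windows was not measured.

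The differences varied with the signal of a cluster and, among bright clusters, with the genomic span of its gene. In each of the 5 dimmest deciles of clusters the median difference was below 0, from -0.12 to -0.05, and in each of the 5 brightest it was above 0, from 0.02 to 0.07. In the dimmest decile 4 clusters were higher and 38 lower at an unadjusted p under 0.05, and in the brightest decile 175 were higher and 14 lower. Among clusters brighter than the median, the medians from the shortest to the longest quartile of genes by span were 0.20, 0.09, 0.06 and -0.02. Over all clusters they were -0.05, 0.00, 0.00 and -0.05, and without the dimmest 30% of clusters 0.03, 0.05, 0.03 and -0.03, so the order by span was seen in the bright clusters alone of these 3 sets. Of the 80 respiratory subunits, 78 were brighter than the median cluster, 31 of them in the shortest quartile and 36 in the next. The medians of those 31 and 36 subunits were 0.59 and 0.82, beside 0.20 and 0.09 for all bright clusters of the same quartiles, and these differences were not tested.

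The arrays themselves differed in the same way. The SD over clusters was 3.27, 3.23 and 3.24 on the extract arrays, 3.13, 3.17 and 3.17 with vehicle in ob/ob mice and 2.86, 3.07 and 3.02 on the +/+ arrays. The 3 extract arrays thus had the widest spread, with no overlap, while the array medians were alike at 6.26 to 6.29 over the 6 ob/ob arrays. With each array brought to a common SD around its median, the list medians were smaller. Complex I went from 0.75 to 0.62, complexes II to IV from 0.59 to 0.48 and ATP synthase from 0.85 to 0.66. The mitochondrial import median went from 0.52 to 0.39, that of the mitochondrial ribosome from 0.49 to 0.36, that of the cytosolic ribosome from 0.52 to 0.27 and that of the proteasome from 0.33 to 0.17. These medians stayed above 0, and the part of the array spread in them was not tested further. Correlations between pairs of arrays over clusters ran from 0.982 to 0.988 within the extract group and 0.980 to 0.987 within the vehicle group. Pairs of 1 extract and 1 vehicle array ran from 0.978 to 0.988, about as high. All pairs share probes and levels.

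**Figure D3:**
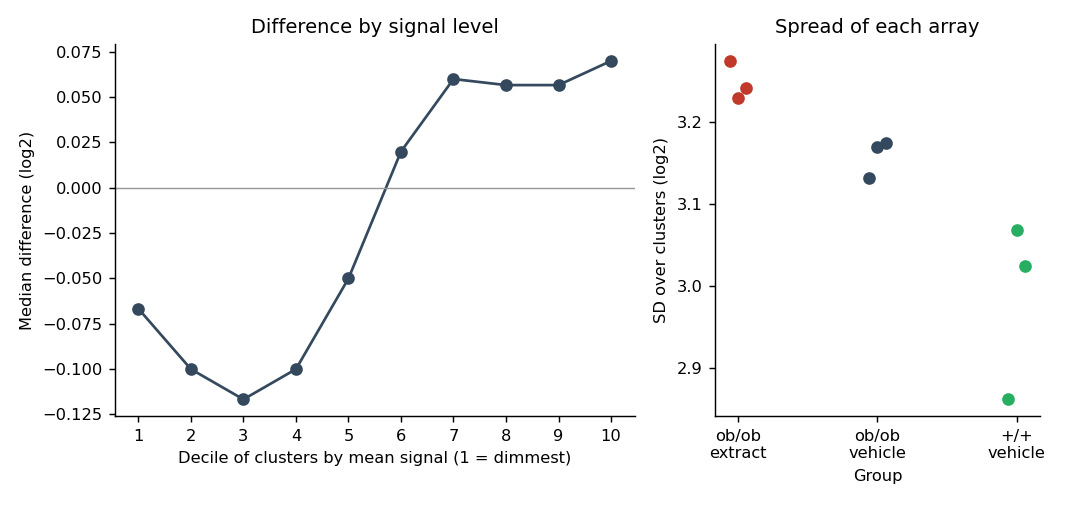
Left, the median log2 difference, extract minus vehicle in ob/ob WAT, over clusters in deciles of mean signal. Right, the SD of each array over its clusters; dim deciles lie below 0 and bright deciles above, and the 3 extract arrays have the widest spread (3.23 to 3.27).

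Antioxidant genes were mixed. Over all clusters 46.5% were above 0 and 2.91% were higher at an unadjusted p under 0.05. All 28 measured members were brighter than the median cluster, and in the brightest decile 58.6% of clusters were above 0. Of these 28, 19 were above 0 and 9 were higher at that p, none lower, with a median of 0.30 and no call. The median was 0.07 with arrays scaled to a common SD, 0.13 without extract array 3 and 0.49 without vehicle array 2. Txn1, thioredoxin, read 15.78, 15.78 and 16.25 against 14.51, 15.23 and 14.94 (1.04 ± 0.253, SE; adjusted p = 0.515 by limma). Gpx1, a glutathione peroxidase, read 16.65, 16.97 and 17.07 against 16.11, 15.76 and 15.78. Sod1, the copper and zinc superoxide dismutase, read 14.04, 14.69 and 14.97 against 13.96, 13.61 and 13.26, so its lowest extract array was only just above vehicle array 1. The metallothionein Mt2, chosen after its values were seen, read 18.88, 19.16 and 18.58 against 17.92, 16.50 and 16.83.

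At 2 well-known targets of the stress factor NRF2, Hmox1 and Nqo1, the groups overlapped. Hmox1, heme oxygenase, read 15.31, 15.59 and 16.02 against 15.56, 17.30 and 15.32, with vehicle array 2 the highest and a mean difference of -0.42. Nqo1, a quinone reductase, read 6.72, 7.27 and 6.81 against 6.82, 7.86 and 6.89. Cat, catalase, differed by 0.27 ± 0.431 (SE), and its 95% interval of -0.69 to 1.23 does not set a direction.

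Of the adipokines, 2 were higher at an unadjusted p under 0.05 among 14 measured, beside 2.91% of all clusters, and neither was called. Retn, resistin, read 16.13, 16.45 and 17.66 with the extract against 15.81, 12.96 and 13.87 with vehicle, a difference of 2.53 ± 0.698 (SE; adjusted p = 0.63 by limma). Its vehicle arrays spread from 12.96 to 15.81, and the +/+ arrays read 15.38, 15.46 and 16.79. Adipoq, adiponectin, read 18.89, 18.94 and 19.06 against 18.52, 18.07 and 18.37, 0.64 ± 0.283 higher (SE; unadjusted p = 0.0464 by limma). Lep itself differed by -0.13, with a 95% interval of -1.67 to 1.41. That interval rests on a spread pooled over the 3 groups. At Lep the +/+ arrays spread far more widely than the extract and vehicle arrays, which lay close together.

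No gene of fat cell identity or lipid metabolism was called. Over 18 genes of fat cell identity the median was 0.14, with 15 above 0, and it was 0.02 both without extract array 3 and with the common SD. Cebpd, an early adipogenic factor, was the furthest, at 10.07, 9.89 and 11.22 against 9.0, 8.51 and 9.40 (adjusted p = 0.677 by limma). Pparg, the master regulator of fat cells, differed by 0.28 (95% interval -0.76 to 1.33) and the insulin-responsive glucose transporter Slc2a4 by 0.49 (-0.66 to 1.64). Among 18 genes of fatty acid synthesis and triglyceride assembly Thrsp was at 1.36 (unadjusted p = 0.0223 by limma) and Fasn, fatty acid synthase, at -0.30. Pnpla2, which starts lipolysis, differed by 0.10 (-0.83 to 1.03). These intervals, too, use the spread pooled with the +/+ arrays. The thermogenic list stood at -0.02, and Ucp1, the uncoupler of brown fat, read 3.96, 4.96 and 3.96 against 5.16, 4.90 and 4.48, low on every array.

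No macrophage gene was called. Of 22 macrophage genes 11 were above 0 and none had an unadjusted p under 0.05, with a median of -0.03. Adgre1, which encodes the F4/80 antigen, read 12.43, 12.34 and 11.23 against 12.56, 13.14 and 12.14, and on the +/+ arrays 8.35, 7.32 and 8.29. Both ob/ob groups were above the +/+ arrays, and they overlapped each other. Of the genes of lipid-associated macrophages, Trem2, a lipid receptor, read 11.68, 11.43 and 11.13 against 11.05, 10.39 and 9.34 (1.15 ± 0.420, SE; adjusted p = 0.961 by limma). Gpnmb, another of that state, read 16.87, 17.36 and 17.72 against 17.52, 18.41 and 16.87. That list's median was 0.13 and turned to -0.05 under quantile normalization and -0.15 with arrays scaled to a common spread, and it was also -0.05 without vehicle array 3.

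Among 28 inflammatory cytokines and chemokines 7 were above 0, with a median of -0.17, against 46.5% above 0 over all clusters, and 16 of the 28 were brighter than the median cluster. The median was -0.33 without vehicle array 2, -0.26 without extract array 1 and -0.08 without extract array 2. Tnf read 4.99, 5.09 and 5.30 with the extract against 5.63, 6.08 and 5.56 with vehicle and 3.37, 3.50 and 3.53 in +/+ mice, a difference of -0.63 ± 0.224 (SE; adjusted p = 0.961 by limma). Ccl2, which attracts monocytes, read 12.50, 10.22 and 10.69 against 12.16, 12.01 and 12.28. Extract arrays 2 and 3 lay below the vehicle arrays and extract array 1 above them. Ccl5 was the one member higher at an unadjusted p under 0.05, at 5.89, 5.61 and 4.69 against 4.82, 4.38 and 4.38. Il6 was near the bottom of the scale on all arrays, at 3.08 to 4.13 in the ob/ob mice.

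In the clock list, 2 of 16 genes were higher and 1 lower at an unadjusted p under 0.05, and none was called. The shares of all clusters were 2.91% higher and 1.66% lower. Dbp, a transcription factor driven by the clock, read 14.01, 13.57 and 14.59 with the extract against 12.98, 11.72 and 11.21 (2.09 ± 0.547, SE; adjusted p = 0.589 by limma). Arntl, the clock activator also called BMAL1, read 7.47, 6.77 and 6.72 against 7.78, 7.81 and 9.08, a difference of -1.24. Per3 read 9.48, 9.99 and 10.67 against 8.98, 9.50 and 8.42. Dbp and Arntl, with the highest and the lowest test statistic of the list, did not overlap between the groups. Such separation was seen at 1 member each way, beside 5.77% higher and 6.79% lower over all clusters. The list as a whole had 7 of 16 above 0. The hour at which tissue was taken is not stated in the labels, and its part was not tested.

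**Figure D4:**
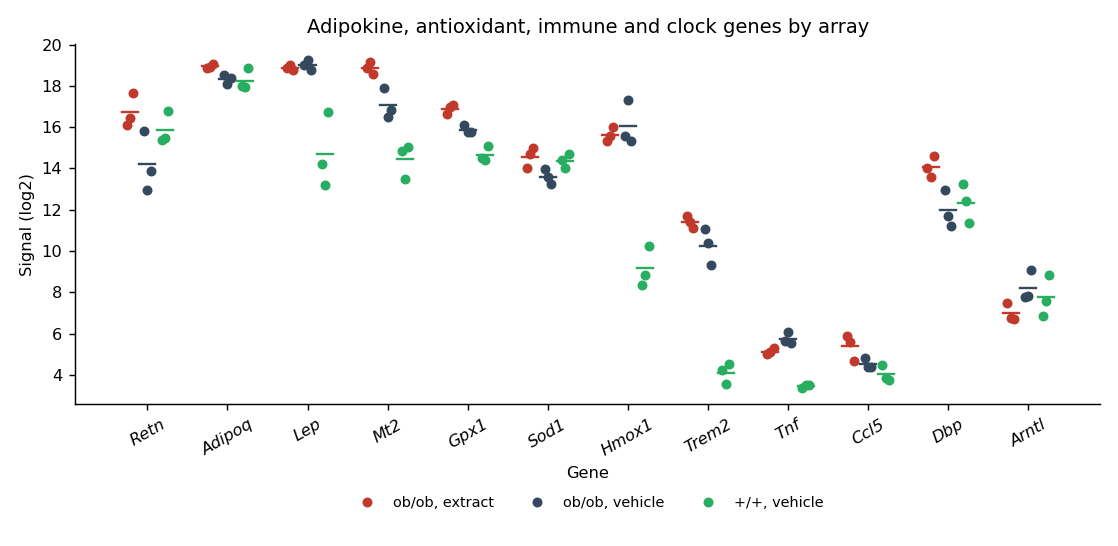
Log2 signal of each array at 12 genes of fat tissue, with points for arrays (3 per group) and short lines for group means. Retn, Adipoq, Mt2, Gpx1, Sod1, Trem2 and Dbp lie higher on all 3 extract arrays than on the ob/ob vehicle arrays, Tnf and Arntl lower, and Lep, Hmox1 and Ccl5 overlap.

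No gene was called lower with the extract. The lowest test statistics belonged mostly to dim clusters. Pramel47, of a family with near-identical copies, read 3.32, 3.00 and 3.34 against 4.23, 4.32 and 4.47 (-1.12 ± 0.213, SE; adjusted p = 0.249 by limma). Sprr2j-ps, a pseudogene of the small proline-rich family whose copies are also alike, read 4.85, 4.64 and 5.55 against 7.53, 7.52 and 6.51. Saa2, an acute-phase serum amyloid A protein, read 5.65, 5.63 and 4.90 against 6.87, 6.53 and 8.96. The extract arrays of Saa2 were near the +/+ arrays, at 5.75, 5.68 and 5.69, and vehicle array 3 stood highest. Spag11b, an epididymal defensin-like gene, read 4.83, 4.97 and 4.93 against 5.56, 6.99 and 7.47.

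Marker lists of other cell types showed no called gene, and all their medians were below 0. The median over all clusters was also below 0, at -0.02, with 46.5% above 0, and dim clusters leaned lower. In the T and NK, B and nerve cell lists, 2 of 16, 2 of 10 and 1 of 9 genes were brighter than the median cluster. In the endothelial list 14 of 14 were. Over 24 other fits, only the epithelium, epididymis and testis, and nerve and Schwann cell medians always stayed below 0. The 11 lists had medians of -0.40 to -0.01, and only Myl1 of muscle, at 1.42, had an unadjusted p under 0.05. The lowest was the epididymis and testis list, with 3 of 17 genes above 0 and 4 of 17 brighter than the median cluster, and its median was -0.19 without vehicle array 3. Its median signal was 4.34, 4.63 and 4.49 on the extract arrays, 4.52, 4.61 and 5.01 on the vehicle arrays and 5.49, 6.60 and 5.26 on the +/+ arrays. Mesothelium markers varied between arrays more than between groups, with medians of 5.80, 4.77 and 7.24 against 6.78, 5.49 and 6.78. The part of these cells in the gene differences was not tested. In pieces of whole tissue, fewer cells of a type and less RNA per cell cannot be told apart.

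**Figure D5:**
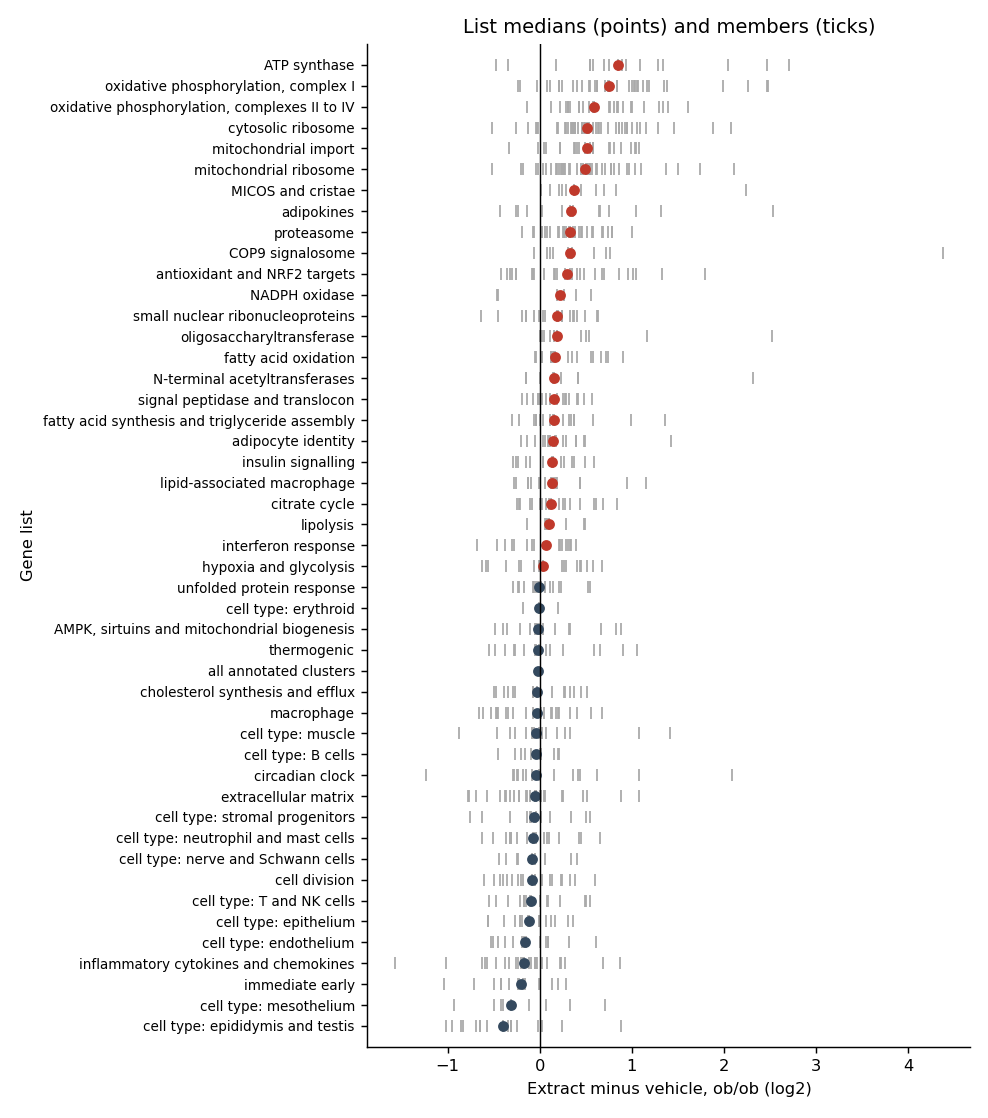
Median log2 difference, extract minus vehicle in ob/ob WAT, of each of 46 gene lists (points) with the members as ticks, ordered by median; the row for all annotated clusters has its median only. The 3 respiratory lists stand at the top, at 0.59 to 0.85, and the epididymis and testis markers at the bottom, at -0.40.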

How the data were processed

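The deposited table holds log2 signals per transcript cluster of 9 Clariom S Mouse arrays. Per the submitters' processing notes, the authors normalized them by RMA in Transcriptome Analysis Console (version 4.0.2 in the design text). The values were read here as log2 expression from SST-RMA, a variant of RMA. Scanner files and detection calls were not used here. The median of the 6 ob/ob arrays was 6.26 to 6.29, and with 3 arrays per group their number limits the precision.

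Clusters were named through the platform annotation, and 2634 of 22206 had no gene name and were not tested. limma 3.58.1 in R 4.3.3 fitted 3 group means over 9 arrays, with empirical Bayes (prior df 4.02, residual df 6), two-sided, and Benjamini-Hochberg adjustment over 19572 clusters. A call is an adjusted p under 0.05. An exact permutation test of 3 against 3 arrays cannot go below 0.1 and was not used. The script was tested on simulated data.

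The comparison and the 46 gene lists (902 genes, 825 measured) were chosen with earlier results of these data known, so lists are given as counts and medians, with no test. Named genes are the calls, the 10 highest and 10 lowest test statistics, the 8 largest differences without overlap each way, the 2 highest and 2 lowest of each list, fixed genes of fat tissue, and the other subunits of complexes with a call. Gene models without a proper name and olfactory, vomeronasal and taste receptors were left out of the rankings over all clusters. Alternatives covered the prior, normalization, filter, samples in the fit, array weights, replicate block, genomic span and each array left out.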

Additional observations from a re-analysis of the deposited data

How the results depend on the processing

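The 5 calls, all higher with the extract, were again 5 with a trended prior, median centring, every cluster tested or the second +/+ array left out, and 6 without the dimmest 30% of clusters. They were 7 with the span trend removed, 12 with a robust prior, 17 at an adjusted p under 0.1, 19 with only the 6 ob/ob arrays and 41 with array weights (39 higher, 2 lower). The submitters' threshold, an unadjusted p under 0.05 with a 1.1-fold change, gave 893, with 569 higher. Quantile normalization left 1, no empirical Bayes 0, and leaving out single arrays 0 to 21. Of the alternatives chosen after seeing the data, a common SD for all arrays left 1, quantile normalization of the 6 ob/ob arrays 8, and those arrays without vehicle array 1 79 (78 higher).

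The labels do not say that replicate numbers pair the mice. The deviations of same-numbered extract and vehicle arrays from their group means correlated at 0.0988, 0.181 and 0.029. Those of arrays with different numbers correlated at -0.271 to 0.138. With 3 arrays per group these values cannot decide whether the arrays were paired. The fit with the replicate block made 0 calls by limma, with or without the span trend removed, at 884 and 882 clusters with an unadjusted p under 0.05.

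That count, 893 in the main fit, rose to 1391 with the 6 arrays alone, 1673 with array weights and 1773 without vehicle array 1 as well, with single arrays left out giving 616 to 1064. Its higher part of 569 became 992 and 1119 under the last 2, and 364 to 733 with single arrays left out. The 43 respiratory subunits became 28 with a common SD, and 26 to 50 with single arrays left out. Of 240 named genes, 191 kept their sign under every alternative run, and none that was called reversed. Alternatives using protein length were not run, since no protein table was used here.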
